A study of Mus musculus with 8 samples.

Results

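The heat shock chaperones described here are 10 mouse genes taken as a listed set: the stress-inducible HSP70 genes Hspa1a and Hspa1b, the constitutive HSP70 gene Hspa8, the HSP90 genes Hsp90aa1 and Hsp90ab1, the HSP110 gene Hsph1, the co-chaperone genes Dnajb1 and Bag3, the small heat shock protein gene Hspb1, and Hsf1, which encodes heat shock factor 1. All 10 were found among the 26930 genes of the count table through their Ensembl identifiers. Chaperones of the HSP70 and HSP90 families bind unfolded or unstable proteins and use ATP to help them reach or keep their shape, while DNAJ, BAG and HSP110 proteins control when HSP70 takes up and lets go of its clients. After heat or another insult to protein folding, heat shock factor 1 forms trimers, binds heat shock elements in the promoters of the inducible members and raises their transcription. Each element is built of repeats of the letters GAA in alternating orientation.

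Poly(A) RNA was sequenced from cultured myeloid-derived suppressor cells (MDSCs), a population of immature myeloid cells known for holding back T cell responses, grown out of C57BL/6 bone marrow. All cultures received GM-CSF and IL-6, each at 40 ng/ml, and from day 4 conditioned medium from TRAMP-C1, a mouse prostate tumour line, and senescent-like is the labels' term for the cells. A group of 4 libraries came from cells left untreated and the other group of 4 from cells given the histone deacetylase inhibitor Romidepsin at 0.5 µM for 6 h. The comparison asks how these genes differ after the inhibitor; separate animals or cultures are not named, so p-values reflect the spread between these libraries alone, and that spread may be technical.

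Total counts per library ranged from 12996892 to 23176949. Romidepsin replicate 3 stood apart: its log2 levels correlated better on average with the untreated libraries (r = 0.934) than with the other Romidepsin libraries (r = 0.910), and the main results are given without it below. All 14 MDSC and myeloid markers were detected, and their summed level was 40322 to 47061 CPM in untreated and 14138 to 33466 CPM in treated libraries, while 1 of the 14 fell in the test and 6 with the replicate block described below. Of B cell markers, 4 of 6 fell (6 with the block), against 16.2% of all tested genes (20.8% with the block), with a summed level of 264 to 921 CPM in untreated and 27.1 to 435 CPM in treated cells. Summed levels in untreated and treated libraries were 8.36 to 32.6 and 6.16 to 12.7 CPM for 8 T cell markers. Of these, 5 had enough counts to be tested and 1 fell (none with the block). For 5 NK cell markers the levels were 4.30 to 9.66 and 1.20 to 2.45 CPM, and the only 1 tested fell. They were 294 to 635 and 314 to 702 CPM for 7 erythroid and megakaryocyte markers (3 tested). For 5 epithelial and tumour cell markers (2 tested) they were 5.01 to 177 and 16.2 to 56.1 CPM, and none was called in either list. For 9 stromal and endothelial markers (6 tested) they were 53.2 to 107 and 47.7 to 220.5 CPM. Of those, 1 fell, while with the block 1 fell and 1 rose. The count table held no gene at 0 in every library. Of the markers looked for, 1 NK cell, 2 erythroid and megakaryocyte and 3 epithelial and tumour cell markers were absent from it. Mitochondrial genes took 0.934% to 1.89% of counts in untreated and 1.59% to 3.05% in treated libraries. In bulk RNA, fewer cells of a type and less RNA per cell cannot be told apart, and the part of the marker levels and the mitochondrial share in the chaperone results was not tested.

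The regulatory sequence of 4 members is shown first because the inducible genes are known for the heat shock elements in front of them. Of the 10 members, 6 had a promoter in the RefSeq table (GRCm38.p6). Hspa8, Hsp90aa1, Hsp90ab1 and Hsf1 were not found in it, so inducible and constitutive members cannot be compared by these motifs. The 250 bases before the start were searched on both strands for a 2-unit element, GAANNTTC or TTCNNGAA, in which N is any base. Printed below are the 200 bases that end just before the RefSeq start, 5′ to 3′ on the strand of the gene, with 2-unit elements in capitals. They lie at chr17:34972157-34972356 (minus strand) for Hspa1a, chr17:34959239-34959438 (minus strand) for Hspa1b, chr5:135887719-135887918 (plus strand) for Hspb1 and chr8:83607975-83608174 (plus strand) for Dnajb1.
Hspa1a: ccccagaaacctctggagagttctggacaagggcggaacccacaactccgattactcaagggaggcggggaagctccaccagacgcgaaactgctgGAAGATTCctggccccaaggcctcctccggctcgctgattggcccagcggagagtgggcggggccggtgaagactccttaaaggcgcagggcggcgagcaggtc
Hspa1b: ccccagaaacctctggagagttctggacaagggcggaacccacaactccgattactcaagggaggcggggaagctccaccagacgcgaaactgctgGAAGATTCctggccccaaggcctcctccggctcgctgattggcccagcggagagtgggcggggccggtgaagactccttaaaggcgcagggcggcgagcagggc
Hspb1: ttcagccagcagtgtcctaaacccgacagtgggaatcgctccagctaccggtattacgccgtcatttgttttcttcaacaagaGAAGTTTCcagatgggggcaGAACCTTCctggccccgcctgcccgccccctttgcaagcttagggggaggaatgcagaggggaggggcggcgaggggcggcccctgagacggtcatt
Dnajb1: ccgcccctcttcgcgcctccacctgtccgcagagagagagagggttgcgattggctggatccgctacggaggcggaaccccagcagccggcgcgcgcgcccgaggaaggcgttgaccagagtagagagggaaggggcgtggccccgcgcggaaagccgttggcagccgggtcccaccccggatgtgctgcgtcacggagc

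A 2-unit element stood before the RefSeq start of 4 of the 6 members, against 13.0% of 27025 promoters of the same length. These include the copies Hspa1a and Hspa1b, whose 250 bases differed at 3 positions, so they are not independent. Hspa1a and Hspa1b each held 1, between 104 and 96 bases before the start, and their 200 printed bases differed at 1 position. Hspb1 held 2 elements between 117 and 89 bases before its start. The element of Hsph1 lay 33 to 25 bases before the RefSeq start, which is inside the transcript that GENCODE starts 40 bases further upstream, so it is not printed. In front of Dnajb1 and Bag3 these letters were not found, which says nothing of elements elsewhere or of looser form. None of the 6 held a 3-unit element, which continues the 2-unit one by NN and a further GAA or TTC (0.403% of all promoters) or the letters TATAAA (13.0%), and 4 held CCAAT (34.5%).

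After Romidepsin, 4 of the 9 members that could be tested rose and none fell. The near-identical copies Hspa1a and Hspa1b may share reads and are not independent, but every count of members here takes them as separate genes. Their summed counts are tested as 1 gene below. The highest fold changes were those of the inducible HSP70 genes Hspa1a and Hspa1b, followed by the stress-inducible HSP90 gene Hsp90aa1 and the HSP110 gene Hsph1. The constitutive members Hspa8 and Hsp90ab1, the co-chaperone gene Dnajb1 and Hsf1 itself did not pass the test, and neither did Bag3. Hspb1 had too few counts to be tested. Over all 12852 genes tested, 20.3% rose and 16.2% fell, and 36.5% were called in either direction. The groups did not overlap for 3 members, Hspa1a, Hspa1b and Hsp90aa1, all higher, against 18.7% of all tested genes in that direction, 16.5% in the other and 35.2% in either. All 9 tested members had enough counts in the untreated libraries alone to be kept. Their median log2 fold change was 0.19, beside 0.0057 over all genes tested. With library size alone as the scale the split over all genes was 3886 higher (30.2%) and 1368 lower (10.6%), with 4 members higher, and with scaling to 20 housekeeping genes 5025 (39.1%) and 686 (5.34%), with 5 members higher, against 2610 and 2080 on the scale used here, the trimmed mean of M-values (TMM). These 2 scales moved the median log2 fold change of all genes to 0.31 and 0.73, and fold changes are to be read relative to that. On the TMM scale, 2 of the 20 housekeeping genes rose and 6 fell (median log2 fold change −0.33). Their summed level, which sets the housekeeping scale, was 13112 to 20908 CPM in untreated and 8087 to 14844.5 CPM in treated libraries. Passes on that scale are therefore also relative to genes that moved. Without Romidepsin replicate 3, 4 members rose and none fell, against 24.5% and 23.4% of all genes, and with libraries of the same number compared as pairs (the replicate block), 4 rose and 1 fell, against 21.2% and 20.8%. In the unpaired fit no member was called lower by edgeR (1, Bag3, had an unadjusted p under 0.05), DESeq2 or limma-voom.

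**Figure D1:**
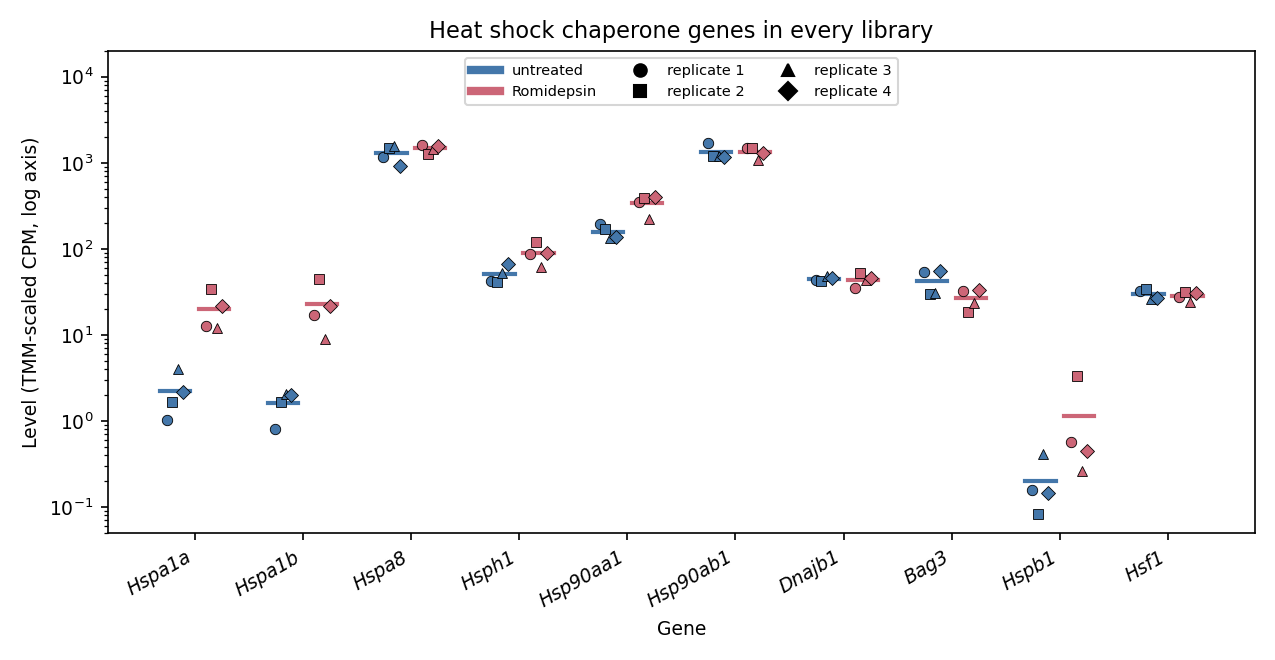
Level of each of the 10 genes (x axis) in every library, in TMM-scaled CPM on a log axis; blue marks untreated and red Romidepsin libraries, symbols give the replicate number and horizontal bars the mean of 4. The red points lie above all blue points for Hspa1a, Hspa1b and Hsp90aa1, and the groups overlap for the other 7 genes.

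Hspa1a and Hspa1b encode the HSP70 chaperone that is nearly silent in unstressed cells and strongly induced by heat. Both are single-exon genes on chromosome 17 of GRCm38, Hspa1a at 34969190 to 34972156 and Hspa1b at 34956436 to 34959238. Levels are given in CPM, counts scaled to a common library size on the TMM scale, for replicates 1 to 4 in that order. Hspa1a stood at 1.04, 1.65, 4.03 and 2.18 CPM in untreated libraries and at 12.8, 33.7, 11.9 and 21.5 CPM in treated ones. Every treated library thus lay above every untreated one, replicate 2 highest and replicates 3 and 1 lowest among the treated. The mean rose from 2.22 ± 1.29 to 19.99 ± 10.1 CPM (SD, n = 4), a log2 fold change of 3.17 ± 0.49 (SE; edgeR quasi-likelihood test, Benjamini-Hochberg adjusted p = 0.00259). This fold change was higher than that of 98.2% of the genes tested.

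Hspa1b, the neighbouring copy, stood at 0.799, 1.65, 2.05 and 2.03 CPM in untreated libraries and at 16.9, 44.9, 8.94 and 21.7 CPM in treated ones. The groups again did not overlap, and replicate 2 was again the highest and replicate 3 the lowest of the treated libraries. From 1.63 ± 0.586 to 23.1 ± 15.5 CPM (SD, n = 4), the log2 fold change was 3.81 ± 0.53 (edgeR adjusted p = 0.00200). It ranked 138 from the highest among the 12852 genes tested.

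The copies are hard to tell apart by sequencing. Their coding sequences were 99.4% identical over 1929 aligned bases, and 52.7% of the 75-base windows of the Hspa1a transcript and 55.8% of those of Hspa1b occurred letter for letter in the other. Reads from such windows can be split between the genes or dropped, and how the authors' counting treated them is not given in the sources used here. Hspa1a also shares exon sequence with Gm20481 on the opposite strand. The single levels are therefore uncertain, and the sum of both was tested as 1 gene. The sum does not depend on how reads were split, but reads dropped from both genes would be missing from it too.

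The summed level was 1.84, 3.30, 6.08 and 4.21 CPM in untreated and 29.7, 78.6, 20.8 and 43.2 CPM in treated libraries, resting on 23 to 87 counts and on 315 to 1238 counts, respectively. It did not overlap between the groups either. The mean rose from 3.86 ± 1.78 to 43.1 ± 25.4 CPM (SD, n = 4), and the log2 fold change was 3.48 ± 0.49 (edgeR adjusted p = 0.00206), an 11.1-fold rise. Without Romidepsin replicate 3 it was 3.68. Hspa1b made up 33.8% to 50% of the summed counts in untreated libraries and 42.9% to 57.1% in treated ones, ranges that overlap. The shares in the untreated libraries are imprecise at this depth: in replicate 1 the share was 43.5% with an exact 95% binomial interval of 23.2% to 65.5%, against 54.3% to 59.9% in Romidepsin replicate 2. These intervals cover counting error only.

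Hspa8 encodes HSC70, the HSP70 protein that cells make without stress and that also serves clathrin uncoating and chaperone-mediated autophagy. Its gene lies on chromosome 9, 40800984 to 40810087, and hosts small nucleolar RNA genes within its annotated extent, 3 of which share exon sequence with it. Hspa8 was at 1174, 1491, 1553 and 920.1 CPM in untreated and at 1605, 1266, 1444 and 1560.2 CPM in treated libraries. The ranges overlap and the treated library was the higher one in 2 of 4 pairs with the same replicate number. Its log2 fold change was 0.19 ± 0.24 (edgeR adjusted p = 0.540), and it passed only on the housekeeping scale (0.97, adjusted p = 0.0153).

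Within 1 library, the level of Hspa1a and Hspa1b together can be set against that of Hspa8, and this ratio does not depend on the scaling. Per kilobase of annotated exon, the inducible pair was at 0.233% to 0.681% of the Hspa8 level in untreated libraries and at 2.15% to 9.30% in treated ones. The groups did not overlap, and the constitutive transcript stayed the more abundant in every library. If reads shared by the copies were dropped in counting, these percentages are too low.

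Hsph1 encodes HSP105, an HSP110 protein that exchanges the nucleotide of HSP70 and helps to dissolve protein aggregates. The gene (chromosome 5, 149614287 to 149636376) was at 42.5, 41.6, 52.8 and 67.1 CPM in untreated and at 87.6, 119, 62.3 and 88.8 CPM in treated libraries. Romidepsin replicate 3 lay below untreated replicate 4, so the groups overlap, although the treated library was higher in 4 of 4 pairs. The mean rose from 51.0 ± 11.8 to 89.5 ± 23.4 CPM (SD, n = 4), a log2 fold change of 0.81 ± 0.23 (edgeR adjusted p = 0.0248). The call was lost when untreated replicate 1, 2 or 3 or Romidepsin replicate 1, 2 or 4 was left out (edgeR adjusted p from 0.0515 to 0.0686), while without Romidepsin replicate 3 the log2 fold change was 0.93 (adjusted p = 0.00698).

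Of the cytosolic HSP90 genes, Hsp90aa1 encodes the stress-inducible form HSP90α and Hsp90ab1 the constitutive form HSP90β, which keeps kinases and steroid receptors in a state ready for activation. Hsp90aa1 (chromosome 12, 110690605 to 110702728) was at 194, 168, 134 and 137 CPM in untreated and at 349.6, 393, 221 and 397 CPM in treated libraries. No treated library reached down to the untreated range, and Romidepsin replicate 3 was the lowest of the treated. The mean rose from 158 ± 28.4 to 340.2 ± 82.4 CPM (SD, n = 4), a log2 fold change of 1.11 ± 0.24 (edgeR adjusted p = 0.00848) or 2.15-fold. Its call held in all 18 alternatives, with log2 fold changes from 1.02 to 1.88, as did those of Hspa1a (2.79 to 4.00) and Hspa1b (3.26 to 4.64).

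Hsp90ab1 (chromosome 17, 45567775 to 45573271) was at 1709.7, 1209.7, 1204 and 1172 CPM in untreated and at 1489, 1485, 1076 and 1297 CPM in treated libraries. Untreated replicate 1 was the highest of all 8 libraries, and the treated libraries lay on both sides of the other untreated ones. The log2 fold change was 0.014 ± 0.23 (edgeR adjusted p = 0.966). Its sign changed with the settings, as given in the closing section.

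The ratio of the HSP90 genes within a library separated the groups. Per kilobase of annotated exon, Hsp90aa1 was at 8.65%, 10.6%, 8.47% and 8.91% of the Hsp90ab1 level in untreated replicates 1 to 4 and at 17.9%, 20.2%, 15.7% and 23.4% in treated ones. The inducible form stayed the minor one in every library.

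**Figure D2:**
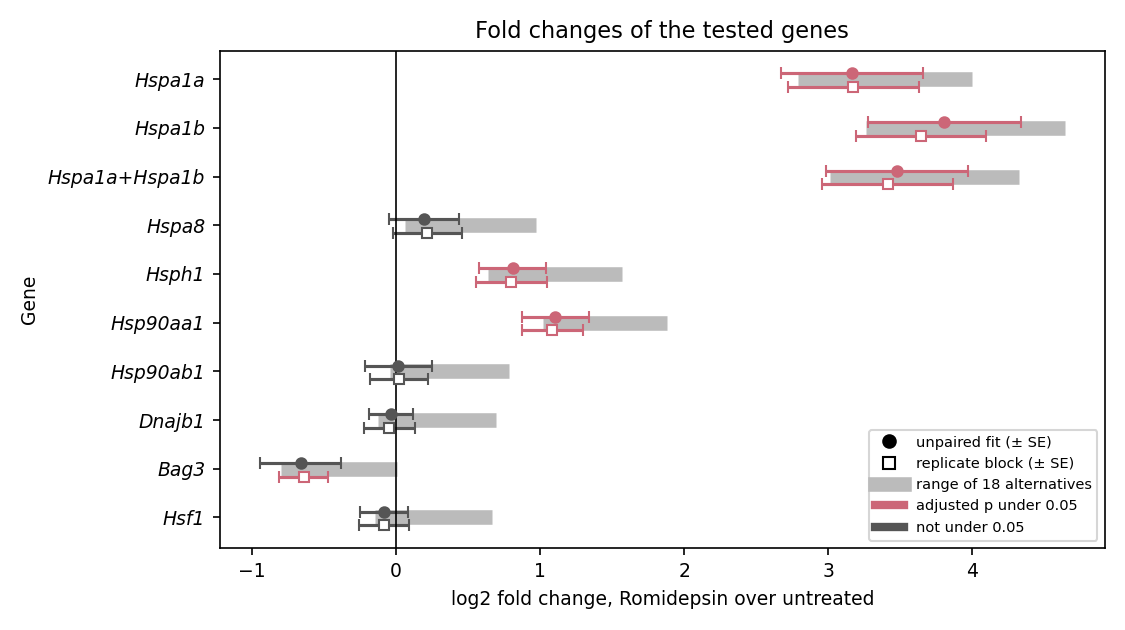
Log2 fold change of Romidepsin over untreated cells (x axis) for the 9 tested genes and for the sum of Hspa1a and Hspa1b (y axis). Circles give the unpaired fit and open squares the fit with the replicate block, each ± SE, red where the adjusted p was under 0.05, and grey bars span 18 alternative settings; Bag3 is red only in the fit with the block, at −0.64.

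Dnajb1 encodes HSP40, which brings clients to HSP70 and starts its ATP hydrolysis, and is itself a classical heat shock gene. It lies on chromosome 8, 83608193 to 83612653. Untreated libraries held 43.2, 42.0, 48.4 and 46.4 CPM and treated libraries 35.0, 52.1, 42.9 and 45.7 CPM. The highest and the lowest of all 8 values were both in the treated group. Its mean went from 45.0 ± 2.94 to 43.9 ± 7.07 CPM (SD, n = 4), with a log2 fold change of −0.035 ± 0.15 (edgeR adjusted p = 0.871), a difference within the spread of the replicates.

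Bag3 encodes a co-chaperone that joins HSP70 to small heat shock proteins and to selective autophagy, and it too is known as a heat shock factor 1 target. Its gene lies on chromosome 7, 128523616 to 128546981. Bag3 was at 54.4, 30.1, 30.6 and 55.7 CPM in untreated and at 32.3, 18.4, 23.8 and 33.5 CPM in treated libraries. In each of the 4 pairs the treated library was the lower one, but the untreated values fell into a higher and a lower pair and the groups overlap. The log2 fold change of −0.66 ± 0.28 did not pass (edgeR adjusted p = 0.0913). With the replicate block, which compares libraries of the same number, it was −0.64 ± 0.17 and passed (adjusted p = 0.0200). The 18 alternatives gave adjusted p from 0.0200 to 0.993 and on the housekeeping scale a log2 fold change of 0.0048. Among all genes, 20.8% fell with the block.

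Hspb1 encodes HSP25 (HSP27 in humans), a small heat shock protein that holds unfolded proteins without using ATP. This gene (chromosome 5, 135887919 to 135889563) had 2, 1, 5 and 3 counts in the untreated libraries and 10, 52, 4 and 7 counts in the treated ones. Expressed as CPM, these are 0.16, 0.0826, 0.411 and 0.145 against 0.574, 3.30, 0.265 and 0.453. Romidepsin replicate 2 held most of the treated counts, and replicate 3 was higher in the untreated library of its pair. The gene missed the count filter and has no test in the reported fit. With no filter its log2 fold change was 2.46 ± 0.82 (edgeR adjusted p = 0.0497), a value that rests on few counts and largely on 1 library.

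Hsf1, the factor that drives the heat shock response and is regulated mostly at the protein level, lies on chromosome 15, 76477422 to 76501913. Its transcript was at 32.7, 34.1, 26.1 and 26.9 CPM in untreated and at 27.2, 31.3, 23.9 and 30.5 CPM in treated libraries. The ranges overlap, and the treated library was higher in 1 of 4 pairs. The log2 fold change was −0.084 ± 0.16 (edgeR adjusted p = 0.703).

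Levels of different members can be compared only per length of transcript. Per kilobase of annotated exon, untreated cells held most Hsp90ab1 (441 ± 86.0 CPM per kb, SD, n = 4), then Hspa8 (299 ± 68.4) and, well below, Hsp90aa1 (40.2 ± 7.22). Bag3 (16.7 ± 5.58) and Dnajb1 (14.0 ± 0.918) followed and did not differ beyond their spread, each being above the other in 2 of 4 libraries. Below them came Hsph1 (7.02 ± 1.63) and Hsf1 (4.22 ± 0.572). Hspa1a (0.749 ± 0.434), Hspa1b (0.583 ± 0.209) and Hspb1 (0.194 ± 0.14) closed the order, with ranges that overlap from each to the next. In treated cells the first 3 places were the same, although the ranges of Hsp90ab1 (446 ± 65.1) and Hspa8 (341 ± 35.1) now overlapped. Dnajb1 (13.7 ± 2.21), Hsph1 (12.3 ± 3.22), Bag3 (10.5 ± 2.80), Hspa1b (8.24 ± 5.51) and Hspa1a (6.74 ± 3.42) then had overlapping ranges from each to the next, and Hsf1 (3.98 ± 0.476) came next, its range overlapping that of Hspa1a, with Hspb1 last (1.11 ± 1.40). Exon length was taken over all annotated transcripts of a gene, which lowers the value of genes with long rare transcripts. The places of Hspa1a and Hspa1b also depend on how reads shared by the copies were counted.

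The size of the rise differed between pairs of libraries. For Hspa1a, treated over untreated was 12.3-fold, 20.4-fold, 2.96-fold and 9.90-fold in pairs 1 to 4, and for Hspa1b 21.2-fold, 27.2-fold, 4.35-fold and 10.7-fold. Pair 3 was the lowest for both, and also for Hsp90aa1 (1.80-fold, 2.34-fold, 1.65-fold and 2.90-fold) and Hsph1 (2.06-fold, 2.87-fold, 1.18-fold and 1.32-fold). Pair 3 contains Romidepsin replicate 3, the library that stood apart over all genes. With both libraries of number 3 left out, the log2 fold changes were 3.78 for Hspa1a, 4.19 for Hspa1b, 1.19 for Hsp90aa1 and 0.97 for Hsph1, and all 4 passed (edgeR adjusted p at most 0.0193).

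**Figure D3:**
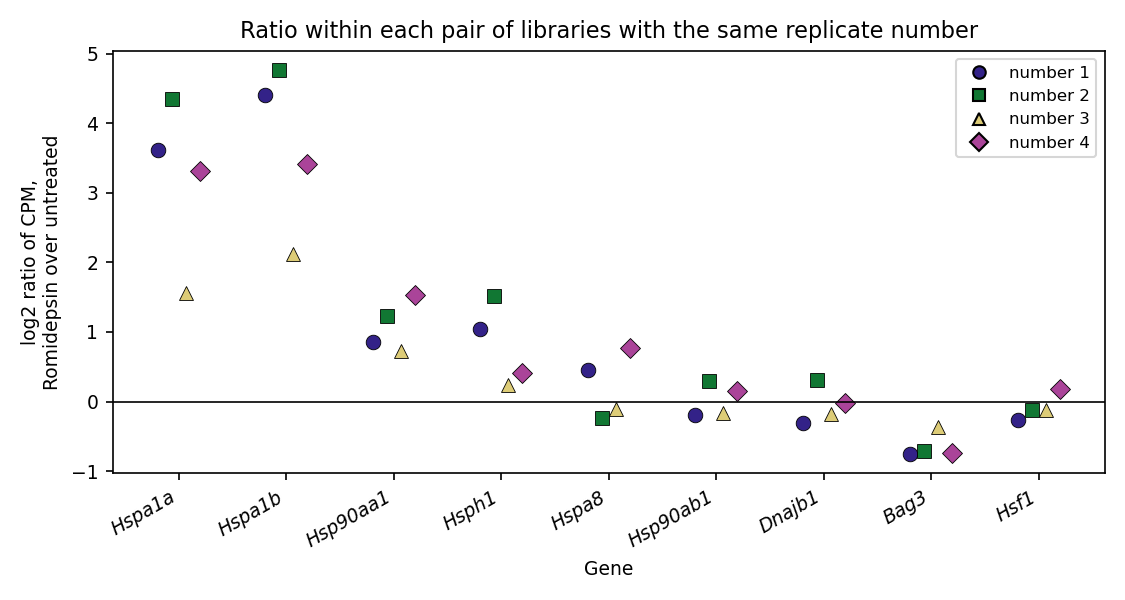
Log2 ratio of CPM, Romidepsin over untreated (y axis), for each of the 9 tested genes (x axis) and each pair of libraries with the same replicate number (symbols). All points are above 0 for Hspa1a, Hspa1b, Hsp90aa1 and Hsph1, with number 3 the lowest in each, and all are below 0 for Bag3.

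Besides the 10 genes, 118 further chaperone, co-chaperone and regulator genes in 7 lists were in the table, and 105 had enough counts to be tested. Of these 105, 32 rose (30.5%), 10 fell (9.52%) and 63 did not pass, against 20.3% and 16.2% of all genes, with a median log2 fold change of 0.27. When single libraries were left out, the number that rose ranged from 20 (without untreated replicate 3) to 42 (without Romidepsin replicate 3), with 21 without Romidepsin replicate 1 or 2. Without Romidepsin replicate 3, 24.5% of all genes rose. The number of all genes that rose also moved with the library left out, as given in the closing section, so this range is not particular to chaperone genes. On the housekeeping scale 65 rose and 5 fell, beside 39.1% and 5.34% of all genes. With the replicate block 35 rose and 11 fell, beside 21.2% and 20.8%.

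Of 10 other tested members of the HSP70 and HSP110 family, 3 rose (30%, against 20.3% of all genes). Of the rest, 7 did not pass and none fell, against 16.2% of all genes, and the median log2 fold change of the list was 0.70. DESeq2 also called none lower, and edgeR gave no lower gene of this list an unadjusted p under 0.05. Hspa2, an HSP70 gene best known from male germ cells, rose from 7.91 ± 2.42 to 43.3 ± 13.8 CPM (log2 fold change 2.45 ± 0.29, edgeR adjusted p = 0.00112). Hspa13, a microsomal HSP70 (1.31 ± 0.24, adjusted p = 0.00504), and Hspa14, a ribosome-associated one that shares exon sequence with Gm45902 (0.85 ± 0.21, adjusted p = 0.0131), rose as well. Hspa5, the HSP70 of the endoplasmic reticulum, was at 1017 ± 112 and 1344 ± 360 CPM and did not pass (0.40 ± 0.25, edgeR adjusted p = 0.223), although it did with library size alone (0.71, adjusted p = 0.0450) and on the housekeeping scale (1.14, adjusted p = 0.0161). Without Romidepsin replicate 3, 5 genes of this group rose and 1 fell, against 24.5% and 23.4% of all genes. With the replicate block 4 rose, with library size as the scale 6 and on the housekeeping scale 8. Among all genes 21.2%, 30.2% and 39.1% rose in these fits.

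Among 19 other HSP90 genes and co-chaperones, 9 rose (47.4%), 2 fell (10.5%) and 8 did not pass (median 0.50), against 20.3% and 16.2% of all genes. Without untreated replicate 3 or Romidepsin replicate 1 or 2, 4 rose. The shares of all genes above belong to the fit on all libraries and are not the measure for this count. Calls over all genes moved with the library left out too. Fkbp5, an HSP90-binding immunophilin of the steroid receptor complex, rose from 36.6 ± 10.8 to 98.8 ± 7.92 CPM (log2 fold change 1.43 ± 0.21, edgeR adjusted p = 0.00227). Unc45a, a myosin chaperone that binds HSP90 (1.19 ± 0.20), and Stip1, the adaptor HOP that hands clients from HSP70 to HSP90 (1.20 ± 0.30, from 110.2 ± 12.6 CPM to 252 ± 101 CPM with Romidepsin replicate 3 at 128 CPM), also rose. In the other direction, Pih1d1, a subunit of the R2TP complex that overlaps Aldh16a1 on the opposite strand, fell from 36.4 ± 7.87 to 11.7 ± 2.82 CPM (−1.63 ± 0.24, edgeR adjusted p = 0.00223). Hsp90b1, the HSP90 of the endoplasmic reticulum, did not pass (0.066 ± 0.20, adjusted p = 0.809).

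Of the 37 tested DNAJ co-chaperone genes other than Dnajb1, 9 rose (24.3%), 4 fell (10.8%) and 24 were not called (median 0.13). Of all genes, 20.3% rose and 16.2% fell. The split depended on the scale. By library size alone 13 rose and 2 fell, beside 30.2% and 10.6% of all genes. On the housekeeping scale 20 rose and 0 fell, beside 39.1% and 5.34%. With the replicate block 10 rose and 4 fell, beside 21.2% and 20.8%. DESeq2 called 8 lower, and 2 were lower without untreated replicate 2 or 3 or Romidepsin replicate 1 or 2. Calls over all genes also moved with single libraries, as given in the closing section. No share of all genes is set beside these last counts, so they cannot be read as particular to this list. Dnajc28 (1.33 ± 0.26), Dnajb4 (0.93 ± 0.19) and Dnajc21 (1.04 ± 0.22) rose, the last a factor of ribosome biogenesis. Dnajb12, a J-protein of the endoplasmic reticulum membrane, fell from 52.4 ± 5.37 to 25.6 ± 6.26 CPM (−1.03 ± 0.19, edgeR adjusted p = 0.00527), a call lost on the housekeeping scale (−0.34, adjusted p = 0.355). Dnajb11, its luminal relative, did not pass (0.26 ± 0.17, edgeR adjusted p = 0.233), but did with library size alone (adjusted p = 0.0395) and on the housekeeping scale (adjusted p = 0.0189).

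Of 12 BAG genes and other HSP70 regulators, 6 rose (50%), none fell and 6 did not pass (median 0.47), against 20.3% and 16.2% of all genes. Bag3 belongs to the members above. None had an unadjusted p under 0.05 in the lower direction in edgeR. With the replicate block, however, 5 rose and 1 fell, beside 21.2% and 20.8% of all genes. Without Romidepsin replicate 3, 1 also fell, beside 23.4% of all genes. Grpel2 and Grpel1, nucleotide exchange factors of mitochondrial HSP70, rose by 1.17 ± 0.17 and 0.76 ± 0.15, and Bag4 rose from 14.4 ± 2.16 to 31.7 ± 8.24 CPM (1.14 ± 0.23, edgeR adjusted p = 0.00652). Bag4 and Grpel1 overlap other genes on the opposite strand. Bag6, a scaffold of membrane protein triage, did not pass (−0.15 ± 0.17) and turned to 0.17 with library size and 0.61 with housekeeping scaling.

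Small heat shock proteins were scarce. Besides Hspb1, 7 were in the table and 2 could be tested. Over all genes 20.3% rose and 16.2% fell, and 2 genes are too few to be set against these shares. Cryab, αB-crystallin, fell from 2.31 ± 1.08 to 0.454 ± 0.376 CPM (log2 fold change −2.33 ± 0.63, edgeR adjusted p = 0.0202), but it overlaps Hspb2 on the opposite strand and lost its call without untreated replicate 2 or Romidepsin replicate 2 (adjusted p = 0.0549 and 0.0507). Without Romidepsin replicate 3 its log2 fold change was −2.96 (edgeR adjusted p = 0.00582). None rose, in DESeq2 or at an unadjusted p under 0.05 in edgeR either. Hspb6 did not pass (−0.42 ± 0.34; 0.21 on the housekeeping scale).

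Of 16 chaperonin and prefoldin genes, which fold actin, tubulin and mitochondrial proteins, 3 rose, 13 did not pass and none fell (median 0.46). The 18.8% that rose were near the 20.3% of all genes that rose, while 16.2% of all genes fell. None fell in DESeq2 or at an unadjusted p under 0.05 in edgeR. This count moved with single libraries: 8 rose without Romidepsin replicate 3 and 5 with the replicate block, but none without untreated replicate 3 or Romidepsin replicate 1, 2 or 4, and 1 rose and 1 fell without untreated replicate 4. It also moved with the scale and the tool, to 8 with library size alone, 13 on the housekeeping scale and 6 in DESeq2. Of all genes, 24.5% rose without Romidepsin replicate 3, 21.2% with the block, 30.2% with library size alone and 39.1% on the housekeeping scale. For the other leave-outs and DESeq2 no such share is set beside the counts, so those cannot be read as particular to chaperonins. The 3 were Pfdn4 (0.82 ± 0.25, edgeR adjusted p = 0.0288), Cct8 (0.78 ± 0.25, adjusted p = 0.0374) and Pfdn6 (0.95 ± 0.33, adjusted p = 0.0462), each of which overlaps another gene on the opposite strand. Cct2, another subunit of the cytosolic chaperonin, did not pass (0.44 ± 0.25, edgeR adjusted p = 0.183), but did on the housekeeping scale (1.25, adjusted p = 0.0197).

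The last group held heat shock factors and genes that regulate them. Among its 10 tested genes other than Hsf1, 2 rose (20%), 3 fell (30%) and 5 did not pass (median −0.39), against 20.3% and 16.2% of all genes. Hsf2, the heat shock factor known from development, which can form mixed trimers with HSF1, rose from 23.6 ± 1.34 to 56.6 ± 6.43 CPM (log2 fold change 1.26 ± 0.14, edgeR adjusted p = 0.00105). Its untreated libraries lay between 22.8 and 25.6 CPM and its treated ones between 47.6 and 62.6 CPM, with no overlap. The acetyltransferase genes Crebbp and Ep300, whose products acetylate histones and HSF1, fell by 1.62 ± 0.21 (from 64.2 ± 9.28 to 20.9 ± 5.53 CPM, edgeR adjusted p = 0.00165) and by 1.87 ± 0.38 (from 199 ± 97.4 to 54.2 ± 23.1 CPM, adjusted p = 0.00714). Daxx, a histone H3.3 chaperone, fell by 1.74 ± 0.50 (edgeR adjusted p = 0.0253), with Romidepsin replicate 3 at 123 CPM above untreated replicate 1 at 88.7 CPM, and lost its call with no count filter (adjusted p = 0.0801) or without 1 of 6 single libraries (up to 0.0678). Without Romidepsin replicate 3 Daxx was at −2.36 (edgeR adjusted p = 0.00224), and with the replicate block its adjusted p was 0.00278. Ep300, Hsp90b1 and Hspb6 share exon sequence with other annotated genes.

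**Figure D4:**
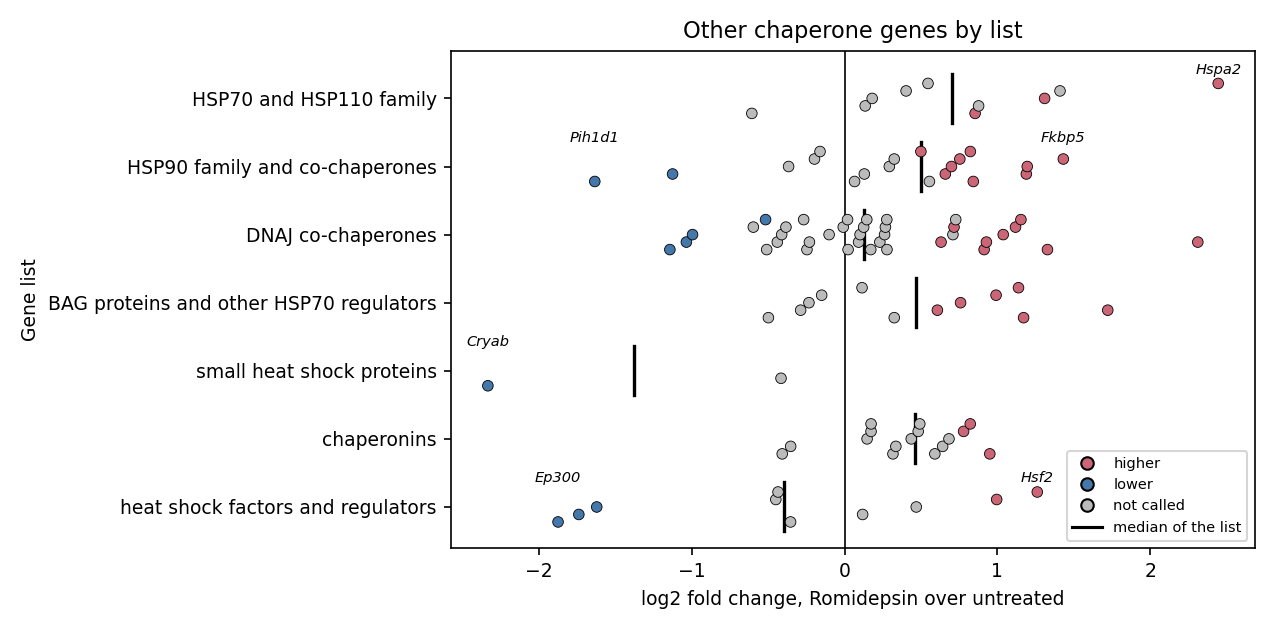
Log2 fold change of Romidepsin over untreated cells (x axis) for each of the other tested chaperone genes, by list (y axis); red genes rose, blue genes fell, grey genes did not pass and black bars mark the median of the list. Hspa2 is the farthest right at 2.45, and the medians of the small heat shock protein list and of the heat shock factor list lie below 0.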

How the data were processed

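Poly(A) RNA of 4 untreated and 4 Romidepsin-treated libraries was sequenced per the labels' protocols. The submitters' processing notes name FastQC, STAR 2.5.2a, DESeq2 and GRCm38 (mm10); for the counting tool, annotation release, strand setting and filters, the entry is: not given in the sources used here. The authors deposited raw counts for 26930 Ensembl genes, of which 26881 could be given a symbol, and no 2 libraries were identical. Library totals are given with the results.

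The deposited counts were fitted without a block with edgeR 4.0.16 (R 4.3.3; filterByExpr, TMM, robust quasi-likelihood F test) and p-values were adjusted by Benjamini-Hochberg over 12852 genes, with 0.05 as the threshold. The SE was derived from the fold change and F. The script was tested on simulated data. Levels per kilobase used the union of GENCODE M21 exons. Same-numbered libraries deviated together (correlations of deviations from the group means 0.525, 0.270, 0.457 and 0.171; highest other value 0.0467), which meets the bound set for pairing (every value above 0.1). The fit with the replicate block is given where it changes a member's call or the counts of a chaperone or marker list. Single genes of these lists that gained or lost a call with the block are not all named. This pairing comes from the data, since the labels give no shared origin. Alternatives were other scalings and filters, DESeq2 1.42.0, limma-voom 3.58.1, the replicate block, and leaving out libraries. Members and lists were chosen with earlier results of these data known. From each list were named up to 3 called genes with the smallest p in the direction most called, up to 1 of the other direction, and the most highly expressed gene not called. A gene that this rule names is not reported here.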

Additional observations from a re-analysis of the deposited data

Results flagged for a closer look

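Of 22 sets of 4 libraries examined, 2 held a library whose gap to the nearest other exceeded Dixon's 95% critical value, and chance flags about 1 in 20 such sets. Hsp90ab1 was at 1709.7 CPM in untreated replicate 1, against 1172 to 1209.7 CPM in the other untreated libraries (gap over range 0.930). Hspb1 was at 3.30 CPM in Romidepsin replicate 2, against 0.265 to 0.574 CPM in the other treated libraries (gap over range 0.898).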

How the results depend on the processing

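Hspa1a, Hspa1b, their sum and Hsp90aa1 stayed higher and called in all 18 alternatives. The log2 fold change of Hsp90ab1 was −0.016 with DESeq2 size factors, −0.015 with no count filter, −0.016 in DESeq2 and −0.042 to 0.16 with single libraries left out. That of Dnajb1 was 0.27 with library size alone, 0.033 with upper-quartile scaling, 0.69 with housekeeping scaling, 0.012 without both libraries of number 3 and −0.13 to 0.060 with single libraries left out. Bag3 was at 0.0048 with housekeeping scaling, and Hsf1 at 0.22 with library size alone and 0.67 with housekeeping scaling. None of these passed, and the cause was not tested. Over all genes 1368 fell with library size alone, and 5025 rose and 686 fell with housekeeping scaling, where 65 of the other chaperone genes rose and 5 fell. With the replicate block 1 member, Bag3, fell (adjusted p = 0.0200), and no other member's call changed with the pairing. Leaving out single libraries gave 1716 to 3146 higher and 1183 to 3010 lower genes, 3 to 4 members higher, and 20 to 42 higher and 6 to 12 lower among the other chaperones. Counts of 1 to 52 limited Hspb1, and 10 to 49 untreated counts the levels of Hspa1a and Hspa1b.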
